A study of Homo sapiens with 8 samples.

Results

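The secreted inflammatory factors examined here were 10 cytokine and chemokine genes that tumor cells are known to make: IL6, CXCL8, CXCL1, CXCL2, CXCL3, CCL2, CSF1, LIF, IL11 and IL1B. Their rows were picked out by gene symbol, and all 10 were among the 21059 genes of the table. RNA sequencing gave the transcript levels of MDA-MB-157, an established breast cancer line labelled estrogen receptor negative. The 4 low glucose libraries came from cells kept in 5 mM glucose and the 4 high glucose libraries from cells kept in 25 mM glucose, both for 48 hours in T25 flasks and, per the study's methods, without serum. The comparison asks whether a glucose level that models diabetes changes what these cells express. The cells were 1 line in monoculture, no osmotic control was among the 8 libraries, and higher glucose and higher osmolarity cannot be told apart here.

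Cytokines of this kind are small secreted proteins that act on the cell that made them or on its neighbours. Interleukin 6, interleukin 11 and leukemia inhibitory factor form a family whose receptors share the signaling chain gp130, encoded by IL6ST, which passes the signal through Janus kinases to STAT3. CXCL8, CXCL1, CXCL2 and CXCL3 attract neutrophils through the receptors CXCR1 and CXCR2, CCL2 attracts monocytes through CCR2, and CSF1 keeps macrophages alive through CSF1R. Most of these genes are known to be induced through kappaB and AP-1 sites in their promoters, and most of their messenger RNAs are short-lived and carry repeats of the pentamer AUUUA that decay factors bind. In breast tumors, cytokines of this group are known from the traffic between tumor cells, bone and myeloid cells.

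The promoter stretches of the members that rose together, with CXCL2 as the near copy of CXCL1 and CXCL3, are shown because they carry the elements these genes are known for. Of the 10 members, 7 had an entry in the RefSeq promoter table (build GRCh38.p14), and the 160 bases just before the annotated start are printed 5′ to 3′ on the strand of the gene. The stretches are chr7:22727040-22727199 on the plus strand for IL6, chr4:73740409-73740568 on the plus strand for CXCL8, chr4:73869233-73869392 on the plus strand for CXCL1, chr4:74099196-74099355 on the minus strand for CXCL2, chr4:74038690-74038849 on the minus strand for CXCL3 and chr19:55370464-55370623 on the minus strand for IL11. Capitals mark matches, on either strand, to a kappaB motif (GGNNTTTCC), an AP-1 motif (TGANTCA), a C/EBP motif (TTGCNNAA) or a TATA box (TATAAA), and no capitals of 2 motifs overlap.
IL6: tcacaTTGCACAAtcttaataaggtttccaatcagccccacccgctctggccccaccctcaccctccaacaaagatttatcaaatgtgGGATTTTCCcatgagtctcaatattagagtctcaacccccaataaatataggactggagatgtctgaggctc
CXCL8: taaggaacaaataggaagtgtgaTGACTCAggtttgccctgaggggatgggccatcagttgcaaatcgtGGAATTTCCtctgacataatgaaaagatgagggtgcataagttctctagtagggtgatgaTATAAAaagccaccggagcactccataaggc
CXCL1: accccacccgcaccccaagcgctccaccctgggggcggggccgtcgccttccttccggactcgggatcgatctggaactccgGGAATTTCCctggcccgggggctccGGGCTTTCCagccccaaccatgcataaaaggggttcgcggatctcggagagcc
CXCL2: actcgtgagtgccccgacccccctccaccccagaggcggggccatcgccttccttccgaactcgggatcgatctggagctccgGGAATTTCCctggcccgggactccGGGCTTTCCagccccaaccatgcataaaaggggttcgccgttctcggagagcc
CXCL3: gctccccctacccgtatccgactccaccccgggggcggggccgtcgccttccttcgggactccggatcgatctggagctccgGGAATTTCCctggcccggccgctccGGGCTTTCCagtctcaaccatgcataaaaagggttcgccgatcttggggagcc
IL11: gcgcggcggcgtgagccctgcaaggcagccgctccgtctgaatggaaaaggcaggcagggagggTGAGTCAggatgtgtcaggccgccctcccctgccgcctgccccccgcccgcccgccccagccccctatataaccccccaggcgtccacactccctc

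In the 250 bases before the start, a kappaB match stood in 5 of the 7 promoters, those of IL6, CXCL8, CXCL1, CXCL2 and CXCL3, against 5.48% of the 27305 promoters in the table. CXCL1, CXCL2 and CXCL3 each held a pair of such matches, GGAATTTCC and GGGCTTTCC, with the nearer one ending 45 bases before the start in all 3. An AP-1 match stood in CXCL8 and IL11 (6.6% of all promoters), and a C/EBP match in IL6, CXCL2 and IL1B (9.13% of all promoters). The exact letters TATAAA were present in CXCL8 alone among the 7 (11.1% of all promoters). Variants of the TATA box were not searched for, so the other promoters are not shown to lack one. Over these 250 bases CXCL1 and CXCL3 were 81.4% identical, CXCL2 and CXCL3 73.4%, and CXCL1 and CXCL2 70.1%, while every other pair of the 7 was between 41.4% and 51.7%. A match is a description of the letters, and no binding was measured.

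Raising glucose was accompanied by higher transcript levels of 5 of the 10 members: IL11, IL6, CXCL8, CXCL1 and CXCL3. Their rises ran from 2.0-fold for CXCL3 to 4.25-fold for IL11, and no member was called lower. CCL2 and CSF1, which were abundant at both glucose levels, along with CXCL2, LIF and IL1B, did not pass the test. CPM here is the read count of a gene, scaled by the authors to the size of its library after adjustment by the TMM normalization factors of edgeR. Calls were made with limma on log2(CPM + 1), at a Benjamini-Hochberg adjusted p under 0.05 over all genes. By that rule, 46.8% of all genes were called in either direction and 22.0% were called higher, as were 29.5% of the genes with a mean of at least 1 CPM. In the same 5 members, all 4 high glucose libraries lay above all 4 low glucose libraries, as they did in 20.9% of all genes. The median difference over the 10 members was 0.68 in log2(CPM + 1), beside -0.01 over all genes. In such bulk samples, a larger share of cells that express a gene and more RNA per cell cannot be told apart.

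**Figure D1:**
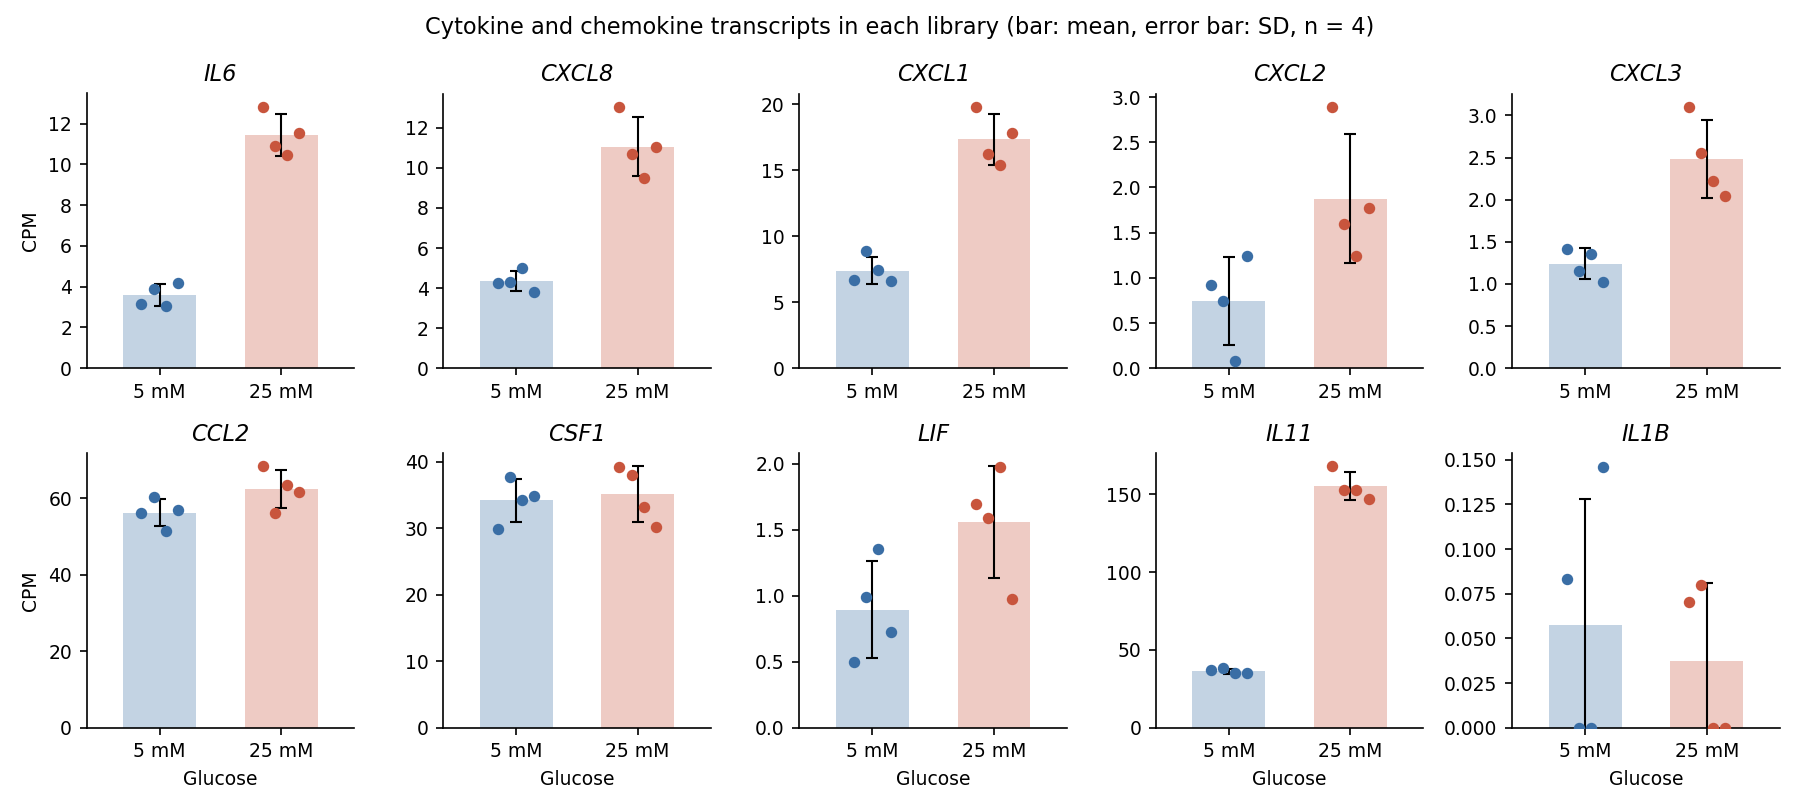
CPM of each of the 10 genes (y axes, linear and starting at 0, each with its own range) at 5 mM and 25 mM glucose (x axis). Points are libraries, bars the mean of 4 and error bars the SD. The groups are apart in IL6, CXCL8, CXCL1, CXCL3 and IL11 and overlap in the other 5 genes.

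The libraries held an estimated 9721637 to 12482546 reads in the table, and 3 reads corresponded to 0.212 to 0.267 CPM. High glucose replicate 1 stood apart from its group by transcript length. The rank correlation between transcript length and its deviation from the other replicates of its group was -0.65 over 11223 genes, while in the other 7 libraries it lay between -0.13 and 0.47. High glucose replicate 1 was also the highest of its group in 8 of the 10 members, so each call was repeated without it. The same 5 members were called higher in that fit, with log2 differences of 2.02 for IL11, 1.40 for IL6, 1.10 for CXCL8, 1.06 for CXCL1 and 0.55 for CXCL3.

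**Figure D2:**
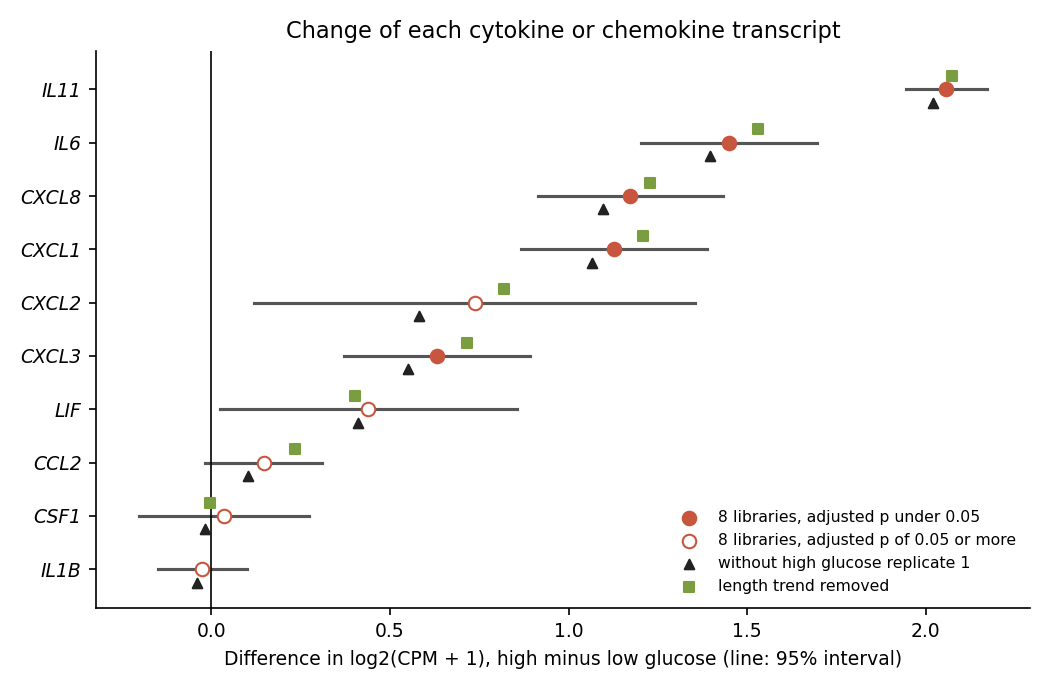
Difference in log2(CPM + 1) between high and low glucose (x axis) for each gene (y axis, ordered by size). Circles with lines are the values and 95% intervals from 8 libraries, filled where the adjusted p was under 0.05. Triangles leave out high glucose replicate 1 and squares have each library's trend with length taken out. IL11 lies at 2.06 and IL1B at -0.03, and the 5 filled circles keep their side of 0 in both alternatives.

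IL11, a cytokine of the IL6 family that acts on bone, stromal and epithelial cells, showed the largest rise of the 10. IL11 (chromosome 19, 55364382 to 55370463, all positions being those of RefSeq on GRCh38.p14) was at 37.4, 38.3, 35.2 and 35.1 CPM in low glucose replicates 1 to 4. At high glucose it was at 168, 153, 153 and 147 CPM. The lowest high glucose library was thus far above the highest low glucose library, and the replicates of each group lay close together. The means were 36.5 ± 1.6 and 155 ± 9.0 CPM (SD, n = 4 each), a ratio of 4.25. On the log2 scale the difference was 2.06 ± 0.05 (SE), with a 95% interval of 1.94 to 2.17 and a limma adjusted p of 7.17e-07. Counting IL11 itself, 21 of the 21059 genes, or 0.0997%, rose by as much. Of the 31-base words of its transcript, 6.90% also occur in other genes.

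IL6, the founding member of the family and a driver of the acute phase response, stood at a much lower level. IL6 (chromosome 7, 22727200 to 22731998) was at 3.17, 3.89, 3.06 and 4.16 CPM in the 4 low glucose libraries. The high glucose libraries held 12.8, 10.9, 10.5 and 11.6 CPM. Every high glucose value was above every low glucose value. The means were 3.57 ± 0.54 and 11.4 ± 1.02 CPM (SD, n = 4 each), a ratio of 3.21, and the log2 difference was 1.45 ± 0.10 (SE) with a limma adjusted p of 3.76e-05. On the other strand, exons of IL6-AS1 and STEAP1B overlap those of IL6, and since use of the strand in counting was not given in the sources used here, reads of these genes cannot be told apart from those of IL6.

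LIF, which holds stem cells undifferentiated and signals through LIFR and gp130, was near the detection limit. LIF (chromosome 22, 30240453 to 30246759) was at 0.50, 0.994, 1.36 and 0.728 CPM at low glucose. It was at 1.69, 1.59, 1.98 and 0.978 CPM at high glucose, which is 6 to 24 reads per library over all 8. High glucose replicate 4 fell below 2 of the low glucose libraries, so the groups overlapped. The log2 difference of 0.44 (95% interval 0.02 to 0.86) had a limma adjusted p of 0.081. It passed the threshold in 4 of 16 alternative fits, and the antisense genes LIF-AS1 and LIF-AS2 share its exons on the other strand.

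CXCL8, the chemokine interleukin 8 and a potent attractant of neutrophils, lies at one end of a chemokine cluster on chromosome 4 (73740569 to 73743716). It was at 4.25, 4.31, 5.01 and 3.79 CPM at low glucose. At high glucose the values were 13.1, 10.7, 9.49 and 11.0 CPM. All high glucose libraries held more than any low glucose library, with high glucose replicate 1 the highest. The means of 4.34 ± 0.50 and 11.1 ± 1.49 CPM (SD, n = 4 each) gave a ratio of 2.55, and the log2 difference was 1.17 ± 0.11 (SE) with a limma adjusted p of 0.00013.

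CXCL1, CXCL2 and CXCL3 are paralogs that signal through CXCR2. CXCL1 (73869393 to 73871308) was at 6.67, 8.86, 7.47 and 6.63 CPM at low glucose and at 19.8, 16.3, 15.4 and 17.9 CPM at high glucose. Its groups did not overlap. The means were 7.41 ± 1.04 and 17.3 ± 1.94 CPM (SD, n = 4 each), the ratio was 2.34 and the log2 difference 1.13 ± 0.11 (SE), with a limma adjusted p of 0.000161. CXCL3 (74036589 to 74038689) was rarer, at 14 to 44 reads per library, with 1.42, 1.16, 1.36 and 1.02 CPM at low glucose and 3.11, 2.55, 2.23 and 2.04 CPM at high glucose. Here too the groups were apart. The ratio of the CXCL3 means was 2.0, and the log2 difference was 0.63 ± 0.11 (SE) with a limma adjusted p of 0.0027.

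CXCL2 (74097040 to 74099195) did not pass the test, although its ratio of means, 2.51, was close to that of CXCL8. It was at 0.917, 0.745, 0.0849 and 1.24 CPM at low glucose, the third value being 1 read. At high glucose it was at 2.89, 1.59, 1.24 and 1.78 CPM. The groups overlapped at 1 point, where high glucose replicate 3 (15 reads) fell just under low glucose replicate 4 (17 reads). The log2 difference was 0.74 (95% interval 0.12 to 1.35) with a limma adjusted p of 0.054, and 7 of 16 alternative fits put it under the threshold. Without low glucose replicate 3 the difference was 0.52, and without high glucose replicate 1 it was 0.58, with limma adjusted p-values of 0.085 and 0.112.

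The 3 paralogs share sequence, and the way the reads were counted could have misassigned or lost reads between them. Each of the 3 stood at whole read numbers in every library, to within 0.01 read. Whether whole reads were given to the wrong paralog or dropped was not tested. Of the 31-base words of CXCL1, 15.0% occur in another gene, as do 21.7% of those of CXCL2 and 9.57% of those of CXCL3. Their summed level does not depend on how reads were divided among them, but reads lost in counting would lower it. The sum was 9.0, 10.8, 8.92 and 8.89 CPM at low glucose. At high glucose it was 25.8, 20.4, 18.9 and 21.7 CPM, a 2.31-fold ratio of means with no overlap.

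In the stretch from CXCL8 to CXCL2, RefSeq places 9 coding genes, of which 6 were in the table. Beside the 4 members these were CXCL5 and CXCL6, both further ligands of the neutrophil receptor CXCR2 and CXCL6 also of CXCR1. CXCL6 rose from 11.1 ± 1.22 to 14.9 ± 2.01 CPM and CXCL5 from 2.43 ± 0.30 to 4.28 ± 0.53 CPM (SD, n = 4 each), with limma adjusted p-values of 0.0206 and 0.00195. The call of CXCL6 was lost without low glucose replicate 3 (adjusted p of 0.056) or without low glucose replicate 4 (0.053). Thus 5 of the 6 measured cluster genes were called higher, and CXCL2 was the exception. The share called higher was 22.0% of all genes and 29.5% of those with a mean of at least 1 CPM. CXCL8, CXCL1 and CXCL3 are members already counted above, and members set both ends of the stretch. The size of the rise differed along the cluster, from a ratio of 1.35 for CXCL6, which had the highest mean of the 6 per length at low glucose with libraries that overlapped those of CXCL1, to 2.55 for CXCL8.

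**Figure D3:**
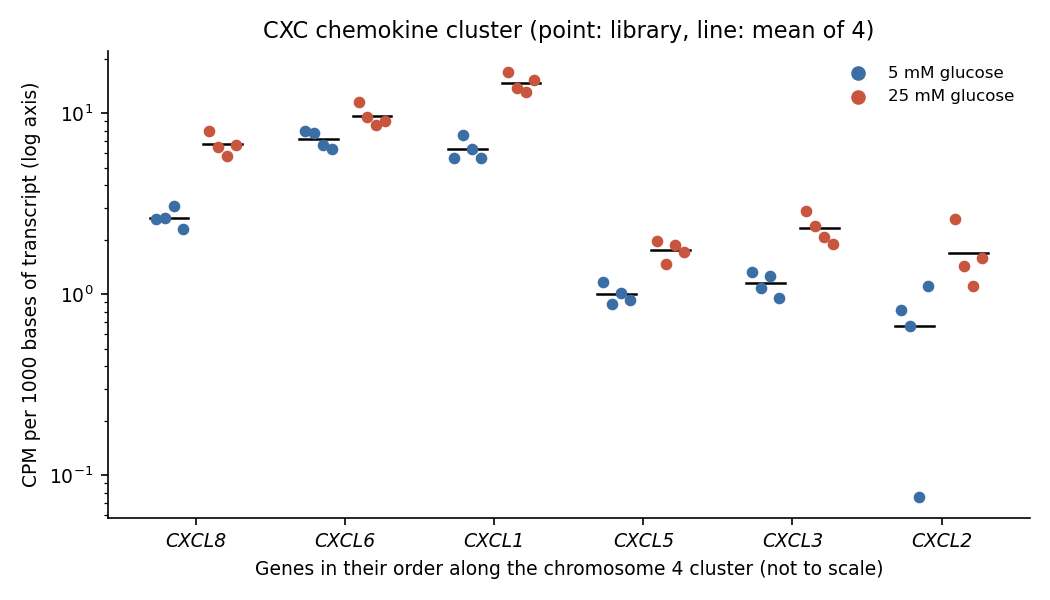
Level of the 6 measured genes of the chromosome 4 chemokine cluster, in their order along the chromosome (x axis, not to scale), as CPM per 1000 bases of the canonical transcript (y axis, log scale). Points are libraries and lines the mean of 4. High glucose libraries lie above low glucose libraries in 5 genes, and in CXCL2 the groups meet and 1 low glucose library is at 0.0762.

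CCL2 and CSF1, the myeloid factors of the group, were not called with all 8 libraries, and CCL2 was called in 2 of 17 alternative fits. CCL2 (chromosome 17, 34255285 to 34257203) was at 56.2, 60.3, 51.5 and 57.0 CPM at low glucose and at 68.3, 56.1, 63.5 and 61.5 CPM at high glucose. High glucose replicate 2 lay within the low glucose range. The log2 difference of 0.15 had a 95% interval of -0.02 to 0.31 and a limma adjusted p of 0.132. CCL2 has the shortest transcript of the 10 (741 bases), and once each library's trend with length was taken out, its difference was 0.23 with an adjusted p of 0.0026. Leaving out high glucose replicate 2 also brought it under the threshold (0.19, adjusted p of 0.047), whereas quantile normalization gave 0.07.

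CSF1 (chromosome 1, 109910506 to 109930992) was at 29.9, 37.8, 34.2 and 34.8 CPM at low glucose. It was at 39.2, 37.9, 33.2 and 30.1 CPM at high glucose. The groups overlapped almost fully. The log2 difference was 0.04 with a 95% interval of -0.20 to 0.27, whose upper end is under the log2 difference of every member that rose, and the limma adjusted p was 0.834. No alternative fit called it.

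IL1B, an upstream inducer of most genes of this group, was barely detected. It had 1, 0, 0 and 2 reads in the low glucose libraries and 1, 1, 0 and 0 reads in the high glucose libraries. All 8 values were under the 3 reads taken as the limit, so no ratio is given. IL1A, the other interleukin 1 ligand, was listed at 0 in every library, and TNF lay between 0 and 0.495 CPM.

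**Figure D4:**
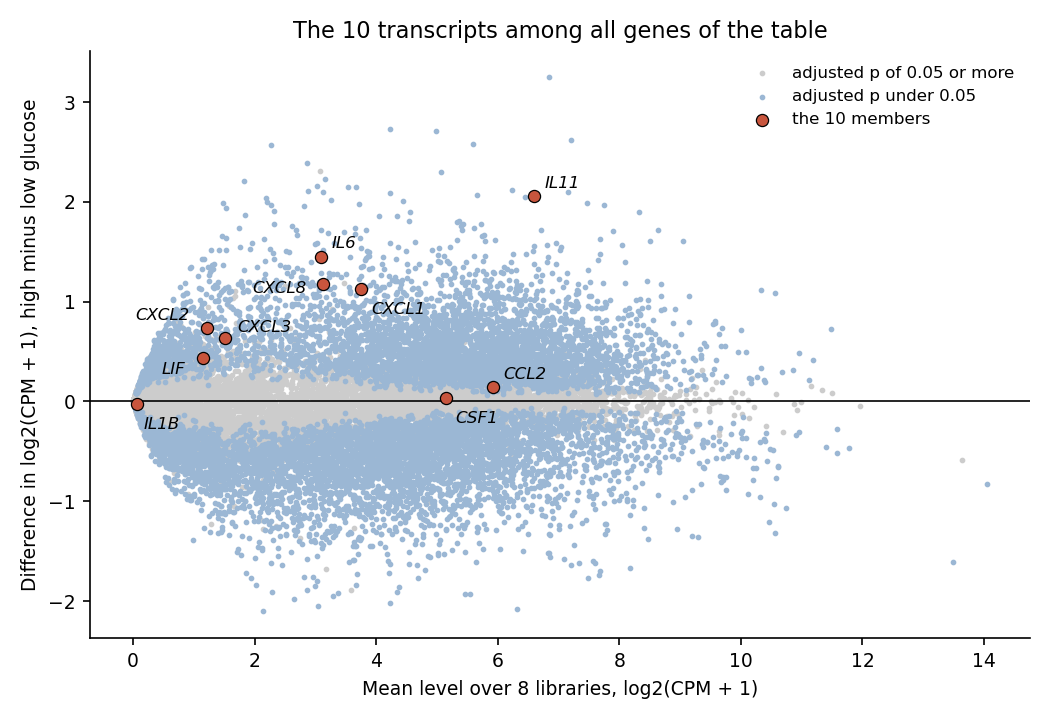
Each point is a gene, with its mean level over 8 libraries (x axis, log2(CPM + 1)) and its difference between high and low glucose (y axis, log2(CPM + 1)). Blue points had an adjusted p under 0.05, gray points did not, and the 10 members are red. IL11 at 2.06 lies near the upper edge of the cloud, while CCL2 and CSF1 lie within 0.2 of 0.

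Levels of different genes can be compared only per length, here as CPM per 1000 bases of the canonical transcript. At low glucose CCL2 led with 75.9 ± 4.91, followed by IL11 with 15.3 ± 0.67, CSF1 with 8.56 ± 0.81 and CXCL1 with 6.31 ± 0.89 (SD, n = 4 each). IL6 (3.17), CXCL8 (2.64), CXCL3 (1.15), CXCL2 (0.669), LIF (0.231) and IL1B (0.038) followed. Neighbours whose libraries overlapped were CSF1 and CXCL1, IL6 and CXCL8, CXCL3 and CXCL2, and CXCL2 and LIF. At high glucose the order was CCL2 (84.2 ± 6.82), IL11 (65.3 ± 3.79), CXCL1 (14.8 ± 1.66), IL6 (10.2 ± 0.91), CSF1 (8.79 ± 1.05) and CXCL8 (6.74 ± 0.90), and CSF1 overlapped both IL6 and CXCL8. CXCL1 and IL6 had thus moved from below CSF1 to above it in the means. Of the summed level of the 10 per length, IL11 made up 13.5% ± 0.54 at low and 33.6% ± 0.98 at high glucose, and CCL2 66.5% ± 1.04 and 43.3% ± 1.64 (SD, n = 4 each).

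All 5 transcripts that rose were rich in one decay element, and so were CXCL2 and IL1B, which were not called. ATTTA, the DNA form of the decay pentamer, occurred 8.97 times per 1000 bases in CXCL2, 6.51 times in CXCL3, 6.09 times in CXCL8, 5.32 times in IL6, 5.11 times in CXCL1, 3.98 times in IL1B and 3.79 times in IL11. Between 0.0307% and 3.12% of the 19553 coding canonical transcripts held it as densely. LIF with 1.81, CCL2 with 1.35 and CSF1 with 1.0 were nearer to the median of all coding transcripts, 0.963. Among all coding genes of the table, 474 had the pentamer at least as densely as IL11, and 39.9% of them were called higher, beside 26.7% of all 15688 coding genes. For the promoter motifs the shares were close to that of all genes: 25.6% of the 778 genes with a kappaB match and 24.8% of the 606 with an AP-1 match were called higher, beside 25.9% of the 13103 genes with a promoter. The ATTTA cutoff was the density of IL11, the lowest of the 5 that rose, so these 5 belong to the 474 by construction. The sets compared were not matched for level or transcript length. These counts were made after the members' values had been seen and carry no test. The part of decay or of promoter elements in the rises was not tested.

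The receptors that would let these cells answer their own cytokines gave a mixed picture. Of 14 receptors and antagonists, 13 were in the table, and 3 were called higher, 2 lower and 8 neither. Of the 13, 4 were under 1 CPM in every library, and 3 of these had at most 3 reads in any library. Over all genes 46.8% were called in either direction. IL11RA, the receptor chain that binds interleukin 11, fell from 18.2, 15.4, 16.7 and 17.7 CPM to 5.65, 5.74, 6.85 and 4.89 CPM. The groups were far apart, with a log2 difference of -1.41 ± 0.10 (SE) and a limma adjusted p of 3.04e-05. Ligand and receptor thus moved in opposite directions, and per length the ratio of IL11 to IL11RA ran from 1.44 to 1.80 in the low glucose libraries and from 16.2 to 21.8 in the high glucose libraries.

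IL6ST, the gp130 chain common to the family, rose from 263 ± 2.48 to 395 ± 40.0 CPM and LIFR from 111 ± 3.10 to 194 ± 19.0 CPM (SD, n = 4 each), with limma adjusted p-values of 0.000544 and 9.73e-05. IL1RAP, the chain that completes the interleukin 1 receptor, rose from 25.9 ± 1.77 to 64.3 ± 6.43 CPM (limma adjusted p of 1.93e-05). In all 3 the groups did not overlap. ACKR3, a scavenging receptor of CXCL12, was the other chain that fell, from 18.6 ± 2.0 to 10.0 ± 1.28 CPM. IL6R (16.9 and 14.6 CPM, limma adjusted p of 0.069) and OSMR (185 and 189 CPM, 0.892) were not called. The receptors through which the chemokine and myeloid members act were low: CXCR1 and CCR2 were listed at 0 in all 8 libraries, CXCR2 was not in the table, and CSF1R was at 4.23 ± 1.0 and 5.62 ± 0.35 CPM (limma adjusted p of 0.078).

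**Figure D5:**
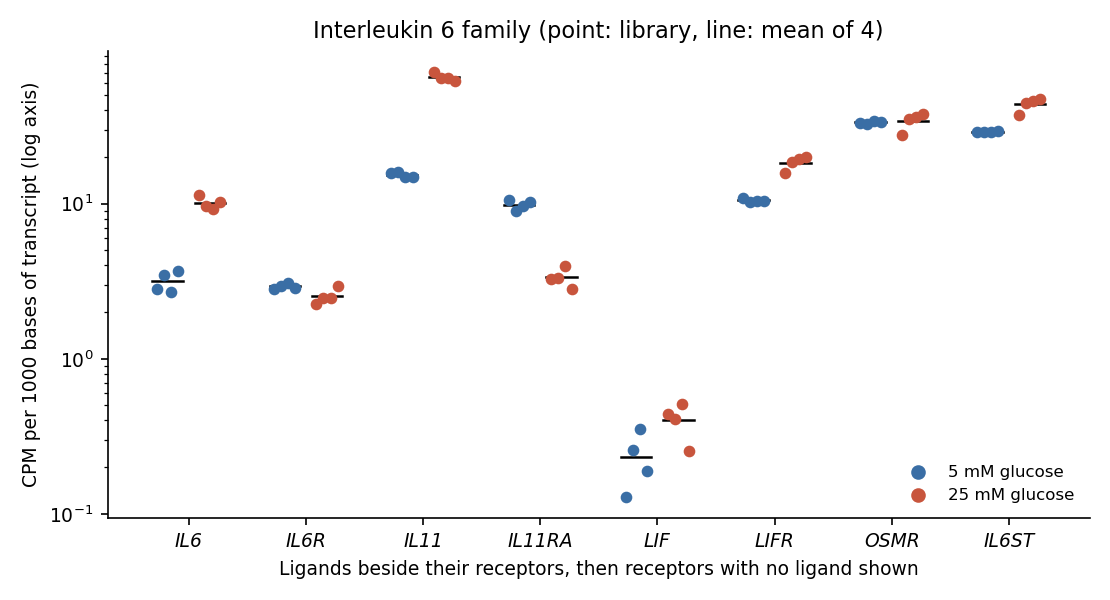
CPM per 1000 bases of the canonical transcript (y axis, log scale) of the 3 interleukin 6 family ligands beside their binding receptors, then OSMR and IL6ST (x axis). Points are libraries and lines the mean of 4. IL11 lies at 61.9 to 70.7 at high glucose against 14.8 to 16.1 at low glucose, while IL11RA moves the other way.

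The relay below gp130 showed no common direction. Of 13 Janus kinase, STAT and feedback genes, 2 were called higher, 6 lower and 5 neither, with a median log2 difference of -0.11. Over all genes 46.8% were called in either direction, and 71.9% in the fit limited to genes with a mean of at least 5 CPM. STAT3, the main transcription factor of the family, rose from 112 ± 3.36 to 141 ± 8.05 CPM (limma adjusted p of 0.000814), and STAT5B was the other that rose. TYK2, a Janus kinase, fell from 80.5 ± 2.98 to 52.8 ± 4.49 CPM and STAT5A from 22.6 ± 1.39 to 16.2 ± 0.59 CPM (SD, n = 4 each, limma adjusted p of 0.00023 and 0.000273). SOCS3, a feedback target of STAT3, was at 37.3 ± 2.79 and 34.9 ± 1.98 CPM and was not called (limma adjusted p of 0.263).

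Among factors that bind cytokine promoters, 8 of 12 were called higher, none lower and 4 neither, with a median log2 difference of 0.29. Over all genes 22.0% were called higher, and 35.8% in the fit limited to genes with a mean of at least 5 CPM. FOSL1 and FOS, partners of JUN in AP-1, rose most. FOSL1 went from 9.25, 8.86, 10.1 and 9.03 CPM to 38.3, 30.3, 36.9 and 35.3 CPM, a log2 difference of 1.81 ± 0.08 (SE), and FOS from 3.39 ± 0.49 to 13.1 ± 1.01 CPM (SD, n = 4 each). Their groups were far apart, with limma adjusted p-values of 4.49e-06 and 1.41e-05. NFKB1, the precursor of the p50 subunit of NF-kappaB, rose from 41.6 ± 1.70 to 65.3 ± 2.29 CPM and the stress factor ATF3 from 12.5 ± 1.22 to 19.9 ± 1.65 CPM (limma adjusted p of 1.53e-05 and 0.000724). JUN itself was at 46.3 ± 2.07 and 44.7 ± 3.70 CPM and was not called (limma adjusted p of 0.575).

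Factors listed for the decay or stability of cytokine messenger RNAs were called higher in 8 of 11 cases, lower in 2 and neither in 1. Their median log2 difference was 0.50. Over all genes 22.0% were called higher, and 35.8% in the fit limited to genes with a mean of at least 5 CPM. ELAVL1, which stabilizes such transcripts, rose from 104 ± 2.10 to 147 ± 3.23 CPM. ZFP36L2, which destabilizes them, rose from 37.7 ± 1.6 to 79.3 ± 5.98 CPM, and its paralog ZFP36L1 fell from 164 ± 5.82 to 128 ± 4.45 CPM (SD, n = 4 each). RC3H2, a Roquin protein of the decay class, rose from 77.5 ± 5.37 to 134 ± 15.8 CPM. The limma adjusted p-values were 5.37e-06, 1.11e-05, 0.000171 and 0.00045 in that order. Genes of opposite known action on cytokine transcripts thus rose together, and HNRNPD was the other that fell.

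The other chemokine and cytokine ligands did not move as a group. Of 18 further chemokine ligands 11 were in the table, with a median log2 difference of 0. Of these, 3 were called higher (CXCL5, CXCL6 and CXCL16), 3 lower (CXCL12, CX3CL1 and CCL22) and 5 neither. Of the 11, 4 were under 1 CPM in every library. Over all genes 46.8% were called in either direction. CXCL16, a membrane-bound ligand of CXCR6, rose from 18.3 ± 0.61 to 26.6 ± 2.21 CPM. CXCL12, the stromal ligand of CXCR4, fell from 46.0 ± 2.70 to 26.7 ± 0.72 CPM, and CX3CL1 (fractalkine) from 8.58 ± 0.49 to 3.07 ± 0.43 CPM (SD, n = 4 each). The limma adjusted p-values were 0.000391, 1.47e-05 and 4.06e-05. The interferon-induced ligands CXCL9, CXCL10 and CXCL11 were not in the table.

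Of 19 further cytokine ligands 17 were in the table, with a median log2 difference of 0.03. Of these, 2 were called higher (CLCF1 and IL16), 4 lower (CTF1, IL15 and IL32 among them) and 11 neither. Of the 17, 11 were under 1 CPM in every library. Over all genes 46.8% were called in either direction. Within the interleukin 6 family the ligands divided. CTF1 (cardiotrophin 1) fell from 7.41 ± 0.72 to 4.02 ± 0.67 CPM, while CLCF1 rose from 2.34 ± 0.39 to 4.94 ± 0.67 CPM (SD, n = 4 each, limma adjusted p of 0.00167 and 0.00098). IL15, a lymphocyte growth factor, fell from 6.41 ± 0.81 to 3.83 ± 0.45 CPM (limma adjusted p of 0.00247).

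The genes whose profile over the 8 libraries was most like that of IL11, CCL2 and CSF1, the 3 members with the highest mean CPM before any correction for length, were found by the root mean square difference between centred log2(CPM + 1) values, over 11290 genes with a mean of at least 5 CPM. NFKBIB, an inhibitor of NF-kappaB, was nearest to IL11 (0.056) and went from 32.9 to 139 CPM. IGFBP3 (0.066) and the zinc exporter SLC30A1 (0.078) came next, with log2 differences of 1.98 and 2.12. BCAS2 (0.034), TYW3 (0.044) and SMIM10L1 (0.048) were nearest to CCL2, and MTPAP (0.055), ANAPC2 (0.061) and THAP4 (0.061) to CSF1.

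Markers of other cells were checked in the same libraries. For comparison, 46.8% of all genes were called in either direction. In the fit limited to genes with a mean of at least 1 CPM, 67.0% were called. Of 8 leukocyte markers 5 were in the table, their summed level was 5.25 to 6.97 CPM at low glucose and 8.44 to 12.1 CPM at high glucose, and 1 of the 5 was called. That gene was CD14, at 0.801 to 1.58 CPM and 2.75 to 5.79 CPM, so it moved with the cytokines, and its part in the result was not tested. The defining leukocyte marker PTPRC lay between 0 and 0.178 CPM, under 3 reads in every library, LYZ had 1 read in 1 library, and CD3E and ITGAM were not in the table. Of 3 endothelial markers, PECAM1 and KDR were called higher and CDH5 lower, with a summed level of 2.21 to 2.67 CPM at low glucose and 3.81 to 5.42 CPM at high glucose. Of 8 breast epithelial and tumor line markers, 1 was called higher and 4 lower, and they summed to 4496 to 4561 CPM in the low glucose libraries and to 3137 to 3633 CPM in the high glucose libraries, most of it VIM. ESR1, the estrogen receptor gene, lay between 0 and 0.170 CPM in this line labelled receptor negative.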

How the data were processed

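RNA sequencing was done on 4 low glucose and 4 high glucose replicates of MDA-MB-157 cells, grouped by the treatment label. The authors deposited 1 table of CPM values (read counts scaled to library size with the TMM normalization factors of edgeR). The submitters' processing notes name the hg38 build and the study's methods name hg19, the table states none, and the counting tool and its use of the strand are not given in the sources used here. RefSeq positions on GRCh38.p14 therefore describe the annotation and not the alignment. Transcript lengths, overlapping exons, ATTTA counts and shared 31-base words came from GENCODE release 44 mapped to GRCh37.

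Of 21077 lines, 18 Y copies of pseudoautosomal genes were left out, and 21059 genes were tested on log2(CPM + 1) with limma 3.58.1 in R 4.3.3 (mean-variance trend, no covariate, 2-sided), adjusted by Benjamini-Hochberg over all of them. Fold changes on this scale understate those of low genes, and ratios are of mean CPM. The size of 1 read was taken as the most frequent positive value of a library, and the members were whole multiples of it to within 0.01 read except IL6 in 2 libraries. Depths and the limit of 3 reads describe counting error alone, because no molecular identifiers mark independent molecules. Whether replicates were separate cultures is not stated, so p-values measure the spread between these libraries. The step was tested on simulated data with far fewer changed genes than were called here and with no length trend. That test does not cover these features of the libraries.

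The members and the lists were chosen with earlier results of these data known. From each list, up to 4 genes with the smallest adjusted p and a mean of at least 5 CPM were named, and the 3 nearest profiles were given for each of the 3 members with the highest mean CPM. CXCL5, CCL22, CLCF1, IL16, IL32, ACKR3, IL6R, OSMR, CSF1R, CXCR1, CCR2, IL1A, TNF, STAT5B, SOCS3, JUN and HNRNPD fall outside this rule and were named after their values were seen. Some genes of the lists are not reported here. Alternatives were other pseudocounts (0.1 and 0.5), filters on low genes, 3 scalings, removal of the length trend of each library, a replicate block and leaving out each library.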

Additional observations from a re-analysis of the deposited data

Results flagged for a closer look

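Among the 66 groups of 4 libraries examined for the members and the named genes, 2 held a library far from the other replicates, where chance would give about 3.3. CXCL12 was at 25.7 CPM in high glucose replicate 3 and at 27.0 to 27.2 CPM in the other high glucose libraries. LIFR was at 116 CPM in low glucose replicate 1 and at 109 to 110.0 CPM in the other low glucose libraries. Neither was a member of the set of 10, and no such library was found for the 10.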

How the results depend on the processing

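IL11, IL6, CXCL8 and CXCL1 were called higher under all 17 alternatives and CXCL3 under the 16 that tested it. Their log2 differences ranged from 1.99 to 2.10, 1.40 to 1.66, 1.10 to 1.33, 1.06 to 1.24 and 0.55 to 0.94. The count of members called was 4 to 7, the 4 being under the filter of 5 CPM, which leaves out CXCL2, CXCL3, LIF and IL1B, and 5 or 6 when 1 library was left out. The members that moved across the threshold were CXCL2 (7 of 16 alternatives, 0.52 to 1.48, the highest with a pseudocount of 0.1), LIF (4 of 16, 0.33 to 0.78) and CCL2 (2 of 17, 0.07 to 0.23), and no called member changed direction. Of the genes called in the 6 lists of related genes, 43 in all, the count ranged from 39 to 46. The receptors and antagonists went from 5 called to 8 under the filter of 1 CPM and to 8 with the length trend removed, and the other cytokine ligands from 6 to 3 under the filter of 5 CPM, which tests fewer genes. CXCL6 was not called without low glucose replicate 3 or replicate 4. Replicate numbers did not pair the libraries: deviations of same-numbered libraries correlated at 0.07, -0.03, 0.01 and -0.04, and only replicates 1 correlated best with their own number. With the replicate block, 8921 genes were called in place of 9849, and 6 members, CXCL2 being added, in place of 5. The values of LIF rest on 6 to 24 reads per library, those of CXCL2 on 1 to 41 and those of IL1B on 0 to 2, and the part of depth in their calls was not tested.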
